A study of Sus scrofa with 6 samples.

Results

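The genes described here are the F-box proteins and the core of the cullin-RING ubiquitin ligases. They were chosen by symbol alone, as every row of the deposited expression table named FBXL, FBXO, FBXW or CUL with a number, plus SKP1, SKP2, RBX1 and RNF7, without FBXO32 and FBXO30. The rule found 63 genes of the 25878 listed: 8 cullins, SKP2, RBX1 and RNF7, 14 FBXL, 32 FBXO and 6 FBXW genes. SKP1 carries no symbol in the table, so it is not counted among them and its values are given separately. The data are RNA-seq of longissimus dorsi, the long muscle of the back, from 6 Nanyang Black pigs, HF01 to HF03 and LF01 to LF03, each with its own library. HF and LF pigs had high and low lipid deposition and were picked for that trait, not set apart by a treatment. No genotype is given for them, so whether the groups differ in genotype is not known here. All 6 shared the breed, the muscle and, by the deposited labels, an age of 180 days, although a table of the study gives another age, and the study's methods describe them as female siblings from 1 farm. Each pig stands for itself, so the spread between replicates is that between pigs.

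A ubiquitin ligase marks a chosen protein with ubiquitin, which often sends it to the proteasome. In a cullin-RING ligase the cullin is the scaffold. A RING protein at its end, RBX1 or RNF7, brings in the ubiquitin-charged enzyme, and an adaptor at the other end holds a receptor that recognises the substrate. In the SCF type, built on CUL1, the adaptor is SKP1 and the receptor is an F-box protein. F-box proteins are sorted by what follows the F-box: leucine-rich repeats in FBXL, WD40 repeats in FBXW, and other or no known domains in FBXO. Attachment of the small protein NEDD8 switches a cullin on, and the COP9 signalosome takes it off again. In skeletal muscle these ligases are known for protein turnover during wasting, for insulin signalling and for the care of mitochondria.

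Levels are in FPKM, a fragment density scaled to transcript length and to the mapped fragments of each library, which corrects for gene length and so permits a comparison of levels between genes. The read depth behind each FPKM value is unknown, because the values used carry no counts. An exact 0 in this table can be a failed estimate, since ACTA1, the skeletal actin, reads 0 in HF01 and HF03 but 10272 to 15140 FPKM elsewhere. ATP8, a mitochondrial gene, took 20.6% to 36.4% of the summed FPKM of 5 libraries, whereas in LF02 it was listed at 0, as were COX1, ATP6 and COX3, and COX2 led with 7.00%. The 7.00% therefore rests on a total that lacks these 4 genes. Of the 63 genes, 54 were above 0 in all 6 pigs, 6 in some pigs, and 3 were listed at 0 in every pig. The gene models of 34 overlap another listed gene on Sscrofa11.1, and reads of such a pair may have been shared out in the estimate.

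No F-box or cullin ligase gene passed the test between HF and LF pigs. The largest differences by limma's p were a higher FBXW4 and FBXL14 and a lower RBX1, CUL1, FBXO3 and FBXL12 in HF pigs, none of them past the threshold. Limma was fitted to log2(FPKM + 0.1) of the 11136 genes that averaged 0.5 FPKM or more over the pigs, which kept 48 of the 63 members, and p was adjusted by Benjamini-Hochberg over all 11136. Fold changes are HF over LF on this log2 scale, which makes the change of genes at low FPKM look smaller than it is. At an adjusted p under 0.05, 0 of the 48 members and 0.0718% of all tested genes were called. With the threshold at 0.10, the member count was again 0, against 6.32% of all tested genes. The smallest adjusted p of a member was 0.106, for FBXW4.

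At an unadjusted limma p under 0.05, 2 of the 48 members were higher in HF pigs (4.17%, against 11.0% of all tested genes) and 4 were lower (8.33%, against 13.8%). In 6 members (12.5%) the HF pigs all exceeded the LF pigs, namely FBXW4, FBXL14, FBXO17, FBXL17, FBXO21 and FBXO42, and 12.8% of all tested genes had such a separation. Every HF pig was below every LF pig in 8 members (16.7%), RBX1, CUL1, FBXO3, FBXL12, CUL4A, FBXO48, FBXO7 and FBXL5, where the share over all tested genes was 17.1%. These shares lie near the background or below it. The counts rose when some pigs were left out, as those of all tested genes did, since fewer pigs separate more easily. Without HF01, 6 members were higher at an unadjusted limma p under 0.05, against 1509 of 11135 tested genes. In that setting 12 were separated upward, against 2671 tested genes, and without LF03, 10, against 1959 of 11179. Without LF02, 8 members were lower at that p, against 1856 of 11157 tested genes, and 17 were separated downward, against 3088. Without HF02, 14 were separated downward, against 2646 of 11064. None of these settings called a member.

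The signs of the 48 fold changes were even, with 24 positive and 24 negative, or 50.0% negative against 51.9% of all tested genes. Their median log2 fold change was -0.01, and that of all tested genes was -0.03. The classes differed in their counts. Of the 7 tested cullins, 6 had a negative fold change (median -0.25), and so did RBX1, SKP2 and RNF7 (median -0.38). Among F-box genes, 8 of 11 FBXL (median 0.28), 12 of 22 FBXO (median 0.03) and 3 of 5 FBXW genes (median 0.03) had a positive fold change.

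**Figure D1:**
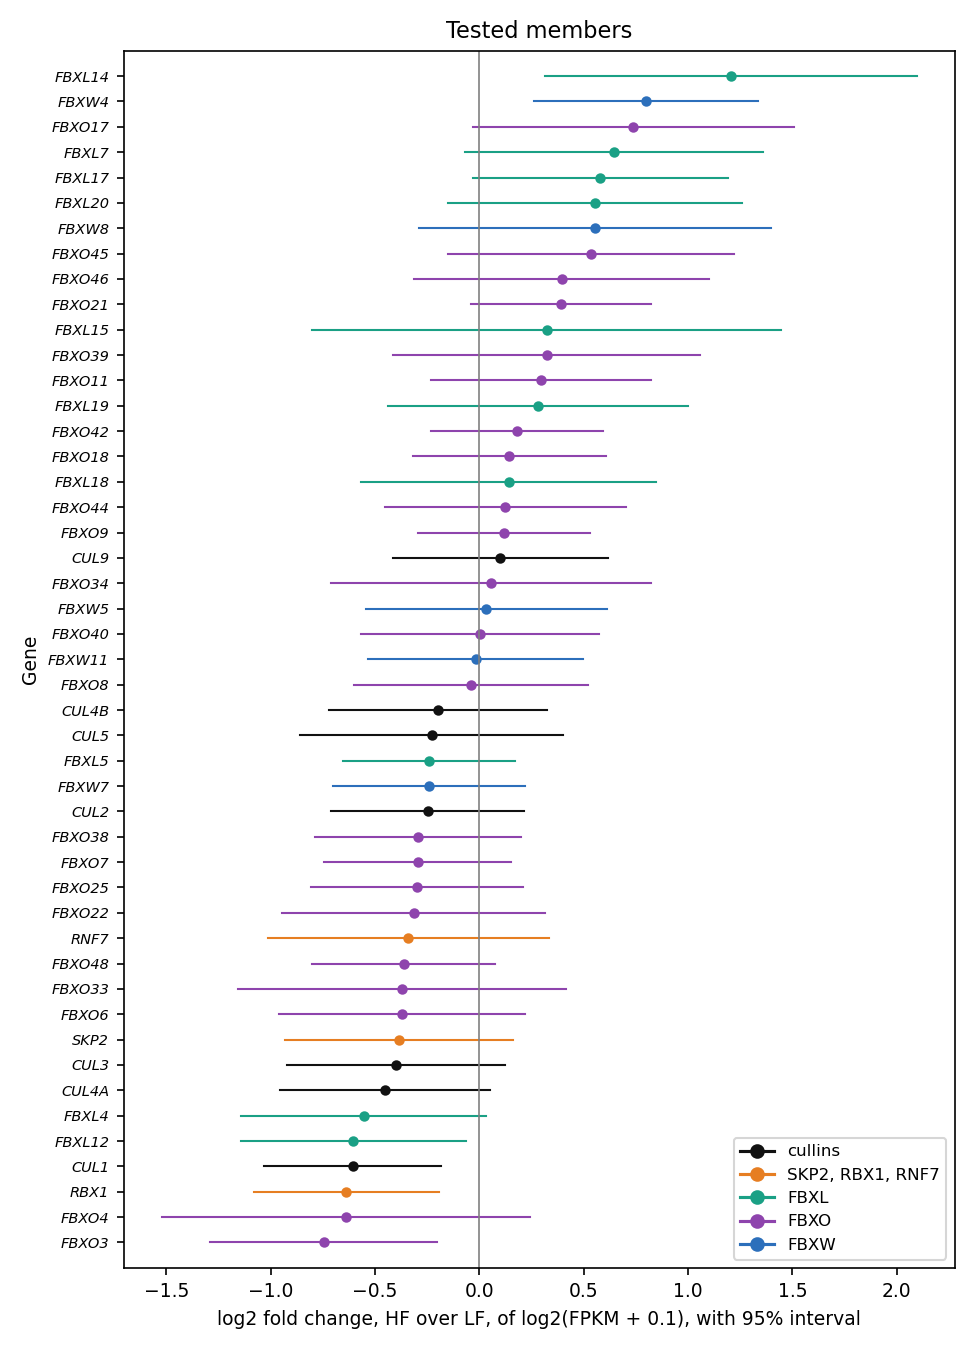
Log2 fold change (HF over LF, on log2(FPKM + 0.1)) of the tested members reported here on the x axis, with limma's 95% interval as the bar and colour for the class. Of the intervals drawn, 6 lie wholly on one side of 0, from 1.21 for FBXL14 to -0.75 for FBXO3.

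Sign went with level in the whole table. Of the genes that averaged 5 FPKM or more, 68.1% had a negative fold change, and their median was -0.21. Among the 23 members above that level, 15 (65.2%) were negative, with a median of -0.24. The cullins and RING proteins are mostly abundant messages, while many FBXL and FBXO genes are not. At that level the median was -0.10 over 4 FBXL genes, -0.15 over 8 FBXO genes and 0.01 over 4 FBXW genes. Over all 16 F-box genes there it was -0.01. The 5 cullins at that level had a median of -0.40, and the 2 RING proteins one of -0.49. The classes thus still differed in their medians among the more abundant genes, which was not tested.

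**Figure D2:**
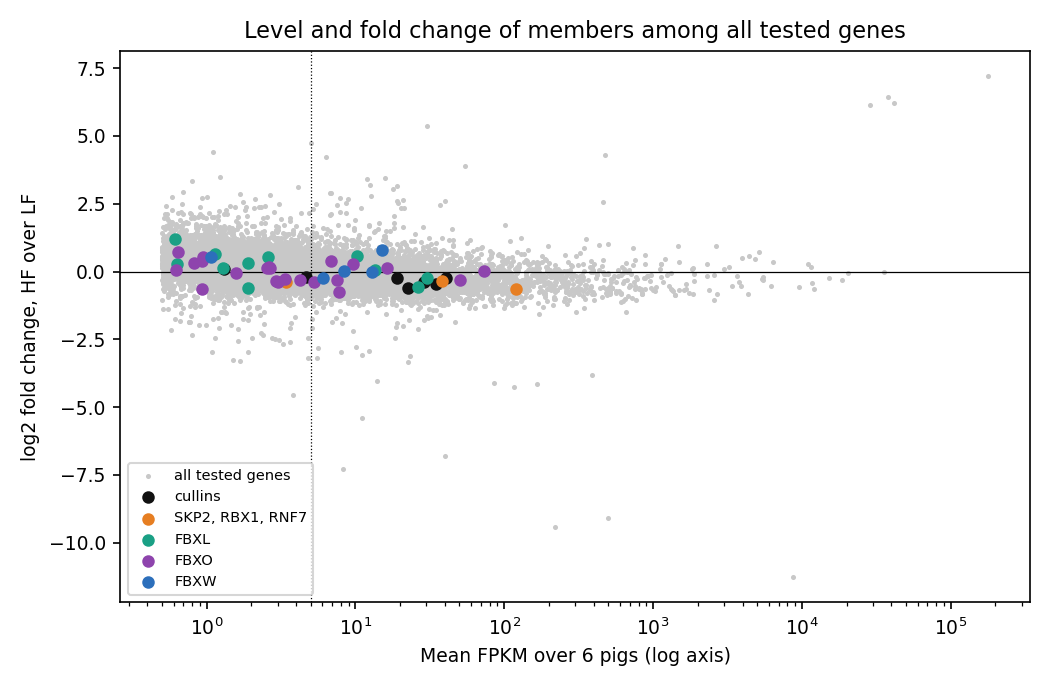
Mean FPKM over the 6 pigs (log axis) against the log2 fold change (HF over LF) of all 11136 tested genes in grey and the 48 members in colour by class, with the dotted line at 5 FPKM. The 23 members right of the line have a median of -0.24 and all tested genes there one of -0.21.

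CUL1 is the scaffold of the SCF ligases and lies on chromosome 9 from 109452442 to 109558306. Its level was 16.7, 20.1 and 17.0 FPKM in HF01 to HF03, and 27.0, 25.2 and 29.9 FPKM in LF01 to LF03. Every HF pig was below every LF pig, and the gap between 20.1 and 25.2 FPKM was wider than the spread within HF. By limma the log2 fold change was -0.61 (95% interval -1.03 to -0.18), which did not pass (adjusted p = 0.112, 0.0882 to 0.288 over the alternatives). CUL1 was also among the members with the least spread, with a within-group SD of 0.135 on the log2 scale against a median of 0.287 over the tested members.

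The other cullins serve other adaptors. CUL4A, which carries its receptors on DDB1, was at 29.9, 31.3 and 25.7 FPKM in HF pigs and 35.7, 34.1 and 50.8 FPKM in LF pigs. The groups did not overlap, with LF03 far above the rest, and the log2 fold change of -0.45 did not pass (limma adjusted p = 0.240). Its close relative CUL4B, on chromosome X, was at 3.20, 5.17 and 4.66 FPKM in HF and 4.94, 4.31 and 5.52 FPKM in LF pigs. These groups overlapped, and the log2 fold change of CUL4B, -0.20, was 0.00 without HF01. In every pig CUL4A was thus the more abundant of the pair, by FPKM.

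CUL3 works with receptors that bring their own BTB domain. It was at 23.5, 29.7 and 21.1 FPKM in HF pigs and 32.6, 26.4 and 39.4 FPKM in LF pigs, with HF02 above LF02, and its log2 fold change was -0.40 (limma adjusted p = 0.312). CUL2 and CUL5 both use the elongins B and C. CUL2 was at 18.0, 16.8 and 16.8 FPKM in HF and 21.0, 16.7 and 24.4 FPKM in LF pigs, where LF02 was the lowest of the 6 pigs (log2 fold change -0.25, limma adjusted p = 0.478). CUL5, the most abundant cullin by mean FPKM, had 31.6, 55.4 and 28.7 FPKM in HF and 40.1, 49.4 and 40.7 FPKM in LF pigs. HF02 held its highest value and HF03 its lowest, so the groups overlapped fully (log2 fold change -0.23, limma adjusted p = 0.641).

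CUL7 and CUL9 are large atypical cullins that lie near each other on chromosome 7. CUL9 was at 1.30, 1.30 and 1.49 FPKM in HF and 1.43, 1.12 and 1.27 FPKM in LF pigs. It was the cullin with a positive log2 fold change, 0.10, with a 95% interval from -0.42 to 0.61 (limma adjusted p = 0.818). CUL7 stayed under the minimum, at 0.284, 0.468 and 0.426 FPKM in HF and 0.311, 0.476 and 0.247 FPKM in LF pigs, and was not tested. Both groups covered much the same range.

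RBX1 is the RING protein of most cullins and lies on chromosome 5 from 7500489 to 7515333. It was the most abundant member, at 85.8, 107 and 91.5 FPKM in HF pigs and 140, 140 and 161 FPKM in LF pigs. All HF pigs were below all LF pigs, and the gap between 107 and 140 FPKM exceeded the spread within either group. With a log2 fold change of -0.64 (95% interval -1.08 to -0.20), RBX1 did not pass limma (adjusted p = 0.111, 0.0958 to 0.285 over the alternatives). RNF7, the RING protein that pairs with CUL5, was at 32.8, 41.1 and 25.4 FPKM in HF and 31.4, 60.2 and 36.9 FPKM in LF pigs. Here the groups overlapped, LF02 stood highest, and the log2 fold change was -0.34 (limma adjusted p = 0.504).

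SKP2 is the F-box receptor that marks the cell cycle inhibitor p27. It was at 2.90, 3.78 and 2.21 FPKM in HF and 3.53, 3.49 and 4.51 FPKM in LF pigs, with HF02 inside the LF range, and had a log2 fold change of -0.38 (limma adjusted p = 0.351). SKP1, the adaptor between CUL1 and the F-box, was identified by its gene ID in the gene name table, on chromosome 2 from 136458747 to 136476004. It was at 153, 238 and 128 FPKM in HF and 246, 252 and 269 FPKM in LF pigs. All HF pigs were below all LF pigs, though HF02 came close, and the log2 fold change of -0.61 did not pass (limma adjusted p = 0.189). SKP1, CUL1 and RBX1, the shared parts of the SCF ligase, thus each had HF values below every LF value, at log2 fold changes from -0.64 to -0.61. Such a separation was found in 17.1% of all tested genes. Among genes averaging 5 FPKM or more, as these do, 1432 of 5299 had it, and the 3 genes were not tested together.

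**Figure D3:**
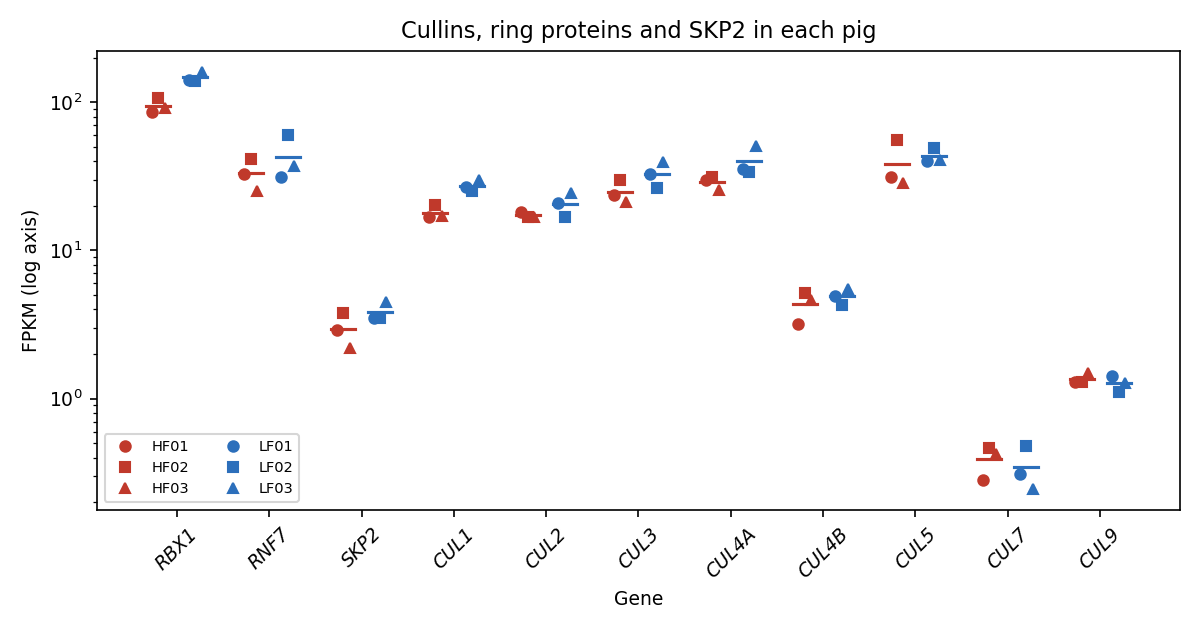
FPKM (log axis) of the 8 cullins, RBX1, RNF7 and SKP2 in each pig, HF in red and LF in blue, with the group mean as a line. In RBX1, CUL1 and CUL4A the red points lie below all blue points, as from 85.8 to 107 against 140 to 161 FPKM for RBX1.

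Ratios within a library do not depend on how that library was scaled. CUL1 made up 13.4%, 12.5% and 14.7% of the summed cullin FPKM in HF pigs and 16.6%, 16.0% and 15.5% in LF pigs, so its share was below every LF value in each HF pig. CUL5 took 24.7% to 34.6% in HF and 21.2% to 31.3% in LF pigs, and CUL4A 19.5% to 24.0% and 21.6% to 26.4%. These shares overlapped between the groups. RBX1 over the summed cullins was 0.689, 0.668 and 0.789 in HF and 0.860, 0.888 and 0.838 in LF pigs, again without overlap. Over RNF7, by contrast, RBX1 stood at 2.62, 2.61 and 3.60 in HF and 4.47, 2.33 and 4.36 in LF pigs, with LF02 lowest of the 6.

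The summed FPKM of the 52 F-box genes other than SKP2 was 2.56, 2.36 and 2.61 times that of the cullins in HF pigs and 2.17, 2.01 and 1.94 times in LF pigs. Every HF ratio was above every LF ratio. This F-box sum leaves out FBXO32 and FBXO30, which the rule excludes, and F-box genes without a symbol or under other names. FBXO32 alone was at 173 FPKM in LF03, where the cullins summed to 192 FPKM, and at 39.5 to 58.7 FPKM in HF pigs. The separation therefore describes these 52 genes only, and not the F-box message as a whole. The F-box sum itself ran from 303 to 379 FPKM in HF and from 317 to 372 FPKM in LF pigs, while the cullin sum ran from 116 to 160 FPKM in HF and from 158 to 192 FPKM in LF pigs. The F-box sums overlapped broadly and the cullin sums barely. With 3 pigs on each side the smallest p of an exact permutation is 0.1, and these ratios are given without a test.

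**Figure D4:**
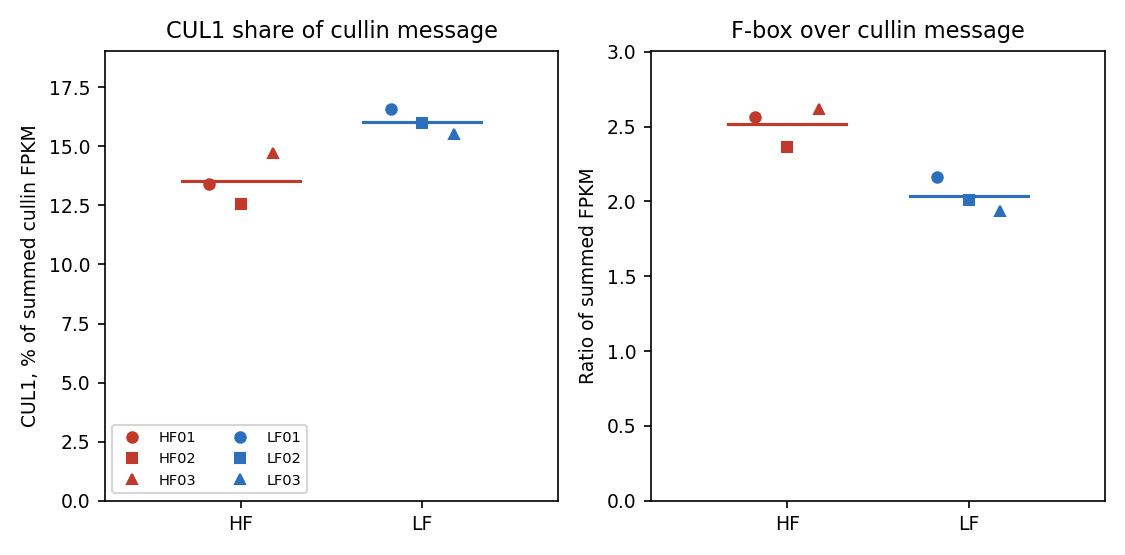
Left, CUL1 as a percentage of the summed cullin FPKM, and right, the summed FPKM of 52 F-box genes over that of the cullins, in each pig with the group mean as a line. The 52 genes do not include FBXO32, FBXO30 or the F-box genes without a symbol. The HF pigs lie at 12.5% to 14.7% and the LF pigs at 15.5% to 16.6% on the left, and at 2.36 to 2.61 against 1.94 to 2.17 on the right.

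Within the summed FPKM of these 52 F-box genes, a few genes made up most of the message. FBXO40, FBXO22, FBXL5, FBXL4, FBXO9 and FBXW4 together took 55.6% to 64.8% of it in the 6 pigs. FBXO32, at 32.4 to 173 FPKM, and FBXO30, at 24.6 to 52.8 FPKM, are left out by the rule and are not in this sum. FBXO40, a muscle receptor that marks IRS1 of the insulin pathway, led the 52 genes by mean FPKM, with 17.3% to 25.4%. It was at 76.2, 93.6 and 52.4 FPKM in HF and 69.4, 80.7 and 66.1 FPKM in LF pigs. The LF range lay within the HF range, and the log2 fold change of 0.00 had a 95% interval from -0.57 to 0.58 (limma adjusted p = 0.994), with a sign that turned under median-of-ratios scaling.

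FBXO22, which marks the histone demethylase KDM4A, came next at 45.4, 55.5 and 33.9 FPKM in HF and 62.5, 39.7 and 66.3 FPKM in LF pigs. LF02 fell among the HF pigs, and the log2 fold change was -0.31 (limma adjusted p = 0.509). FBXL5 is the iron-sensing receptor that removes the iron regulatory proteins. Its level was 28.4, 25.7 and 29.3 FPKM in HF and 32.8, 30.3 and 35.6 FPKM in LF pigs. The groups were apart by a narrow gap, the within-group SD was low at 0.107 on the log2 scale, and the log2 fold change of -0.24 did not pass (limma adjusted p = 0.435). FBXO9, a receptor for regulators of the mTOR kinase, was at 18.7, 15.2 and 16.8 FPKM in HF and 16.5, 15.1 and 15.0 FPKM in LF pigs, with overlap and a log2 fold change of 0.12 (limma adjusted p = 0.722).

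FBXL4 is a mitochondrial receptor that holds back mitophagy by removing BNIP3 and BNIP3L. It was at 17.5, 25.4 and 20.3 FPKM in HF and 36.4, 22.2 and 35.6 FPKM in LF pigs. LF01 and LF03 stood above all HF pigs while LF02 lay among them. The log2 fold change was -0.55 (95% interval -1.14 to 0.03), and the limma adjusted p of 0.223 was 0.0881 without LF02, still short of the threshold. BNIP3 was at 107, 136 and 136 FPKM in HF and 284, 235 and 389 FPKM in LF pigs. Its groups lay well apart, and its log2 fold change of -1.24 had a limma adjusted p of 0.0808 that was 0.0485 without LF02. BNIP3L, at 11.9 ± 3.39 FPKM in HF and 11.1 ± 1.22 FPKM in LF pigs (SD, n = 3 each), overlapped and had a log2 fold change of 0.05.

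Of the F-box genes lower in HF pigs, FBXO3 and FBXL12 had the smallest p. FBXO3, on chromosome 2 from 27145774 to 27184181, was at 5.27, 6.51 and 5.37 FPKM in HF and 8.10, 8.30 and 13.2 FPKM in LF pigs. LF03 was far above the other LF pigs, and all LF pigs were above all HF pigs. The log2 fold change of -0.75 (95% interval -1.29 to -0.20) did not pass (limma adjusted p = 0.119, 0.0944 to 0.292 over the alternatives). FBXL12, on chromosome 2 from 68691476 to 68706048, was at 1.61, 1.10 and 1.76 FPKM in HF and 2.43, 2.34 and 2.07 FPKM in LF pigs. These groups were also apart, at a log2 fold change of -0.60 (limma adjusted p = 0.166).

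FBXO48 and FBXO7 were separated the same way at smaller differences. FBXO48, reported to mark active AMPK, was at 2.56, 2.74 and 2.35 FPKM in HF and 2.82, 3.55 and 3.58 FPKM in LF pigs. HF02 and LF01 nearly met, and the log2 fold change was -0.36 (limma adjusted p = 0.276). FBXO7, which binds a regulator of the proteasome and is mutated in a form of parkinsonism, was at 7.19, 6.03 and 6.98 FPKM in HF and 7.90, 7.24 and 9.86 FPKM in LF pigs. HF01 and LF02 were almost equal (log2 fold change -0.30, limma adjusted p = 0.380). FBXO4, at 0.710, 0.493 and 0.863 FPKM in HF and 1.04, 0.699 and 1.83 FPKM in LF pigs, overlapped and was among the most variable members, with a within-group SD of 0.517 on the log2 scale.

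FBXW4, known as dactylin from a mouse limb mutant, had the smallest p of all members and lies on chromosome 14 from 112638200 to 112735299. It was at 20.6, 21.3 and 15.8 FPKM in HF and 8.65, 13.9 and 10.8 FPKM in LF pigs. The HF pigs all stood above the LF pigs, with HF03 and LF02 closest. Its mean was 19.2 ± 2.96 FPKM in HF and 11.1 ± 2.64 FPKM in LF pigs (SD, n = 3 each). The log2 fold change of 0.80 (95% interval 0.26 to 1.34) did not pass (limma adjusted p = 0.106, 0.0661 to 0.284 over the alternatives). Within the F-box sum, FBXW4 took 5.23% to 6.46% in HF pigs and 2.45% to 4.39% in LF pigs, also without overlap.

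FBXL14, a receptor for the Snail family of transcription factors, lies on chromosome 5 from 68676927 to 68678128, inside the spans of ERC1 and WNT5B. It was at 0.805, 0.757 and 1.09 FPKM in HF and 0.294, 0.208 and 0.520 FPKM in LF pigs. All HF pigs were above all LF pigs at these low levels, and the log2 fold change of 1.21 (95% interval 0.32 to 2.10) was the largest in size among the members, without passing (limma adjusted p = 0.121, 0.0981 to 0.298 over the alternatives). FBXO17, a relative of the sugar-binding F-box proteins, was at 0.844, 0.668 and 0.979 FPKM in HF and 0.331, 0.506 and 0.545 FPKM in LF pigs. It too was separated (log2 fold change 0.74, limma adjusted p = 0.215). Its model overlaps those of 2 listed genes without a symbol.

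FBXL17 checks the pairing of BTB domain proteins and removes wrongly paired ones. It was at 10.4, 18.0 and 9.27 FPKM in HF and 7.61, 8.94 and 7.56 FPKM in LF pigs. HF02 stood far above the others and HF03 just above LF02, and the log2 fold change was 0.58 (limma adjusted p = 0.220). FBXO21, found in the mouse as a gene of muscle atrophy, was at 6.79, 8.16 and 8.46 FPKM in HF and 5.19, 6.16 and 6.41 FPKM in LF pigs. The groups were close but apart (log2 fold change 0.39, limma adjusted p = 0.237). FBXO42, a receptor reported to bind p53, had the least spread of all tested members, a within-group SD of 0.0786, and was at 2.59, 2.98 and 2.86 FPKM in HF and 2.53, 2.39 and 2.47 FPKM in LF pigs. Its separated groups differed by a log2 fold change of 0.18 (limma adjusted p = 0.565).

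FBXL7, FBXL20 and FBXO45 also had positive fold changes, with groups that met or overlapped. FBXL7 was at 0.963, 1.69 and 1.61 FPKM in HF and 0.625, 0.969 and 0.995 FPKM in LF pigs, with HF01 just below LF02 (log2 fold change 0.65, limma adjusted p = 0.237). FBXL20, known in the mouse for removing a protein of the synapse, was at 2.16, 3.05 and 4.06 FPKM in HF and 2.14, 1.40 and 2.69 FPKM in LF pigs. HF01 lay inside the LF range (log2 fold change 0.55, limma adjusted p = 0.301). FBXO45, which works with a neuronal ligase in place of CUL1, was at 0.816, 1.36 and 1.26 FPKM in HF and 0.668, 0.915 and 0.671 FPKM in LF pigs, again with HF01 inside the LF range (log2 fold change 0.53, limma adjusted p = 0.303).

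**Figure D5:**
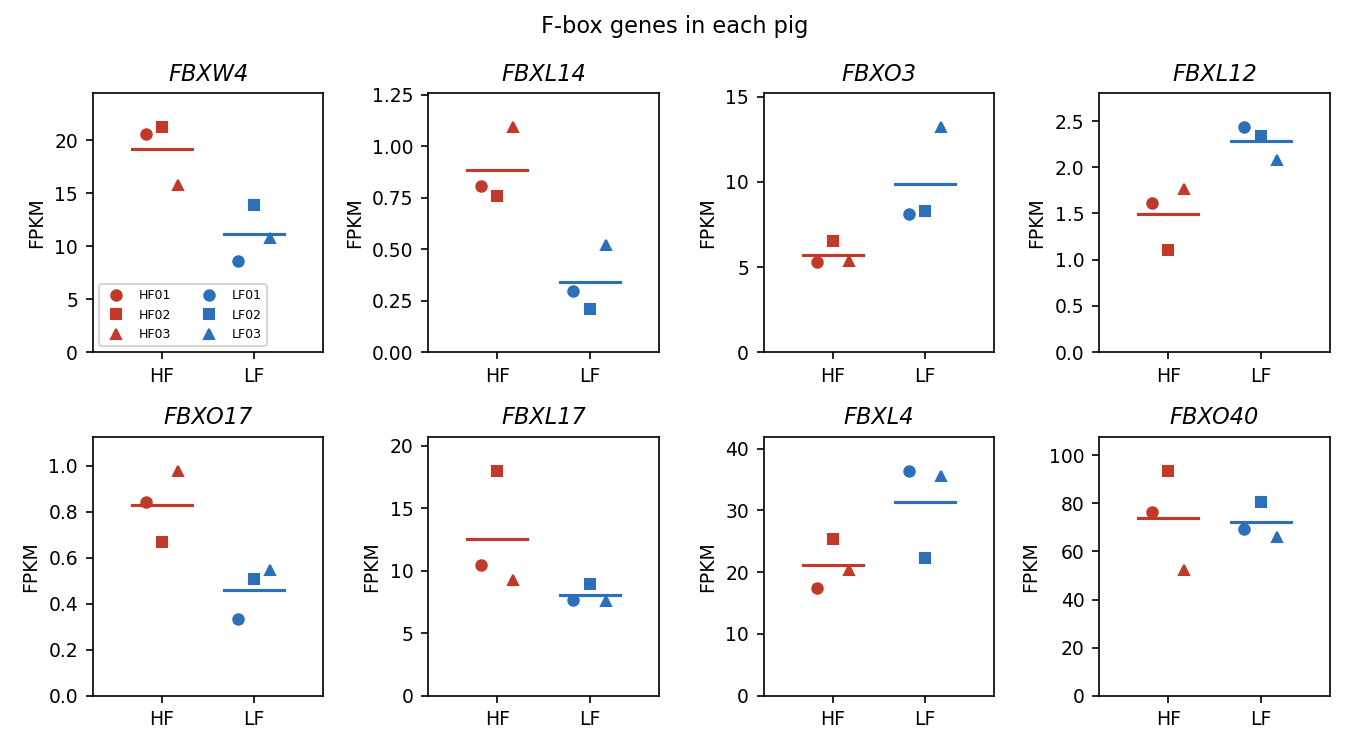
FPKM of 8 F-box genes in each pig, HF in red and LF in blue, with the group mean as a line and each y axis starting at 0. FBXW4, FBXL14, FBXO17 and FBXL17 have all HF pigs above all LF pigs, FBXO3 and FBXL12 all below, while FBXL4 and FBXO40 overlap.

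The groups of FBXW7 and FBXW11 overlapped. FBXW7, which marks cyclin E and MYC, was at 5.04, 6.25 and 5.26 FPKM in HF and 5.43, 7.58 and 6.71 FPKM in LF pigs, with a log2 fold change of -0.24 (95% interval -0.70 to 0.22, limma adjusted p = 0.487). FBXW11, a receptor for beta-catenin and the NF-kB inhibitor, was at 10.1, 16.9 and 11.9 FPKM in HF and 12.8, 13.3 and 12.4 FPKM in LF pigs. All LF values lay inside the HF range (log2 fold change -0.02, 95% interval -0.53 to 0.50).

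Some members vary among pigs of 1 group more than between groups. FBXL15, a receptor for the ligase SMURF1, had the widest spread, at 2.23, 1.69 and 1.87 FPKM in HF and 0.628, 1.60 and 3.30 FPKM in LF pigs. The LF pigs alone held both its lowest and highest value. FBXW8, the partner of CUL7, was at 0.985, 0.930 and 2.01 FPKM in HF and 0.864, 1.07 and 0.562 FPKM in LF pigs, where HF03 stood alone. FBXO33 ranged from 1.68 to 3.79 FPKM in HF and from 2.21 to 4.06 FPKM in LF pigs. Over all tested members the median within-group SD was 0.287 on the log2 scale, and over all tested genes 0.306.

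The 15 members under the minimum were FBXW9, CUL7, FBXO10, FBXO5, FBXL2, FBXO36, FBXO15, FBXO24, FBXL16, FBXO2, FBXO43, FBXO47, FBXO41, FBXO16 and FBXL13. Several are known from other tissues or cell states, such as FBXO5 (EMI1), which restrains the anaphase-promoting complex in dividing cells, its germ cell relative FBXO43 (EMI2), and FBXO15, a mouse marker of pluripotent cells. FBXO5 was at 0.233, 0.178 and 0.260 FPKM in HF and 0.189, 0.207 and 0.222 FPKM in LF pigs. FBXO43 was at 0.0288, 0.105 and 0.0175 FPKM in HF pigs and listed at 0 in all LF pigs. FBXO36 and FBXO47 were above 0 in LF03 alone, at 0.747 and 0.0435 FPKM, and FBXO41, FBXO16 and FBXL13 were listed at 0 in every pig. FBXO2, which binds sugar chains in neurons, overlaps its neighbour FBXO44 on chromosome 6. It did not exceed 0.0674 FPKM in any pig, whereas FBXO44 ran from 2.10 to 3.86 FPKM.

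Of the rows with no symbol in the table, 6 carry gene IDs that the gene name table gives to SKP1 and 5 more F-box genes. FBXL22, known from mouse heart and skeletal muscle, lies on chromosome 1 from 108404064 to 108411768 and overlaps no listed gene. It was at 1.21, 0.931 and 1.84 FPKM in HF and 0.105, 0.359 and 0.250 FPKM in LF pigs. The groups lay far apart, and the log2 fold change of 2.10 (95% interval 1.12 to 3.09) exceeded that of every member without passing limma (adjusted p = 0.0808, 0.0514 to 0.257 over the alternatives). With a pseudocount of 1 it was 0.90. FBXL6 was at 2.17, 1.57 and 1.65 FPKM in HF and 2.63, 2.29 and 3.10 FPKM in LF pigs, with all HF pigs below (log2 fold change -0.55, limma adjusted p = 0.172). FBXO31 and FBXO28 overlapped between the groups, with log2 fold changes of -0.26 and -0.18 (limma adjusted p = 0.557 and 0.619), and FBXL8 was under the minimum.

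Of the 2 genes the rule leaves out, FBXO32 (atrogin-1), a receptor of muscle atrophy, was at 39.5, 58.7 and 48.1 FPKM in HF and 48.6, 32.4 and 173 FPKM in LF pigs. LF03 alone stood out, and the log2 fold change of -0.43 (limma adjusted p = 0.661) was 0.28 without LF03. FBXO30 had a log2 fold change of -0.21 (limma adjusted p = 0.684), which was 0.07 without LF03.

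The enzymes and regulators that act on cullins were mostly lower in HF pigs, though none passed at 0.05, and no list was tested as a whole. This list and those below were chosen with earlier results of these data known, so their counts are description only. In the list for neddylation and cullin exchange, 9 of 13 tested genes had a negative fold change (median -0.38), and 5 were lower and 0 higher at an unadjusted limma p under 0.05, against 13.8% and 11.0% of all tested genes. In 6 genes every HF pig was below the LF pigs, and in CAND2, a cullin exchange factor, every HF pig was above them (17.1% and 12.8% of all tested genes). Of the 9 genes averaging 5 FPKM or more 7 were negative, where 68.1% of all genes at that level were. In a fit of genes at that level alone, 5 of the 9 were lower at an unadjusted limma p under 0.05, against 1203 of 5299 genes. There 6 of the 9 were separated downward, against 1432 of 5299. NAE1, a subunit of the enzyme that activates NEDD8, was at 14.6 ± 2.46 FPKM in HF and 25.9 ± 0.780 FPKM in LF pigs (SD, n = 3 each). Its log2 fold change was -0.84 (limma adjusted p = 0.0893). NEDD8 itself was at 19.4 ± 1.07 and 31.9 ± 2.66 FPKM (n = 3 each, SD), for a log2 fold change of -0.71 (limma adjusted p = 0.0899). UBE2M, which passes NEDD8 to the cullins, had a log2 fold change of -0.49 (limma adjusted p = 0.150), and DCUN1D5, a helper of that step, one of -0.55 (limma adjusted p = 0.135). These 4 genes were among the 6 separated downward.

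All 10 tested genes of the COP9 signalosome had a negative fold change (median -0.46), with 5 lower at an unadjusted limma p under 0.05 and 6 separated downward. Over all tested genes those shares were 13.8% and 17.1%, and 68.1% of the genes averaging 5 FPKM or more, as all 10 do, were negative. In a fit of the 5299 genes at that level alone, 1203 were lower at that p and 1432 were separated downward. The counts of the list were again 5 and 6 there. GPS1, its first subunit, was at 16.8, 17.5 and 17.8 FPKM in HF and 26.6, 26.6 and 27.0 FPKM in LF pigs. Its groups were tight and far apart, with a log2 fold change of -0.62 (limma adjusted p = 0.0992). COPS5, which carries the cutting activity, was at 51.1 ± 4.57 FPKM in HF and 71.3 ± 4.16 FPKM in LF pigs (n = 3 each, SD), for a log2 fold change of -0.48 (limma adjusted p = 0.157). COPS3 and COPS8 had log2 fold changes of -0.84 and -0.92 (limma adjusted p = 0.112 and 0.123). The models of GPS1 and COPS3 overlap other listed genes.

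The 4 adaptors of other cullins were negative as well (median -0.53), 2 of them at an unadjusted limma p under 0.05, where 13.8% of all tested genes were lower at that p. All 4 averaged over 5 FPKM, a level at which 68.1% of genes were negative. In a fit of genes at that level alone, 3 of the 4 were lower at that p, against 1203 of 5299 genes. ELOB was at 227, 222 and 167 FPKM in HF and 320, 381 and 325 FPKM in LF pigs, clearly apart, with a log2 fold change of -0.74 (limma adjusted p = 0.102). ELOC, its partner under CUL2 and CUL5, overlapped in LF02 and had a log2 fold change of -0.57 (limma adjusted p = 0.196).

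Substrate receptors of the other cullins went both ways, as the F-box genes did, with 16 of 34 positive and 18 negative (median -0.08), 3 higher and 5 lower at an unadjusted limma p under 0.05 (11.0% and 13.8% of all tested genes). KLHL41, a CUL3 receptor of the sarcomere, was at 1238 ± 131 FPKM in HF and 1995 ± 295 FPKM in LF pigs (n = 3 each, SD), for a log2 fold change of -0.68 (limma adjusted p = 0.119). ASB11, a receptor of CUL5, was lower in all HF pigs at -0.81 (limma adjusted p = 0.0899). ASB12 and KLHL34 had log2 fold changes of 1.63 and 1.49 (limma adjusted p = 0.123 and 0.131), with overlapping groups in ASB12. The F-box proteins under other names, KDM2A, KDM2B and BTRC, lay near 0, at log2 fold changes of 0.12, -0.12 and -0.01, each of which turned sign without at least 1 pig. Known substrates were even, with 9 of 17 positive (median 0.00). At an unadjusted limma p under 0.05, 1 was higher (CCND1, 0.91) and 2 were lower (BNIP3 and NFKBIA, -1.24 and -0.71). Over all tested genes 11.0% were higher and 13.8% lower at that p.

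Muscle is a mixture of cells, and in bulk RNA fewer cells of a type and less RNA per cell cannot be told apart. Of 17 muscle fibre markers, 14 were found by symbol and none was at 0 in every pig, with a summed level of 33310 to 57648 FPKM in HF and 53495 to 78644 FPKM in LF pigs. Without ACTA1, whose zeros in HF01 and HF03 lower their sums, the ranges were 33310 to 47455 and 40305 to 65204 FPKM. Markers of smooth muscle and pericytes (8 of 8 positive) summed to 194 to 406 FPKM in HF and 106 to 202 FPKM in LF pigs, and those of fibroblasts (8 of 8 positive) to 319 to 806 and 284 to 343 FPKM. Schwann cell markers (4 of 5 tested positive) ran from 46.5 to 103 FPKM in HF and from 31.3 to 38.9 FPKM in LF pigs, and satellite cell markers (4 of 5 positive) from 18.7 to 26.1 and from 12.5 to 15.6 FPKM. These sums were higher in HF pigs without overlap for Schwann and satellite cells. The most abundant satellite cell marker, MYOD1, was at 11.0 to 16.5 FPKM in HF and 3.51 to 8.52 FPKM in LF pigs. CDH15, the next in level, overlapped and had a log2 fold change of -0.09. Separated upward in the same way were 6 members, FBXL22 and 12.8% of all tested genes. Adipocyte markers (6 of 6 tested positive) summed to 113 to 263 FPKM in HF and 74.9 to 173 FPKM in LF pigs. Endothelial markers ran from 75.7 to 98.2 and from 47.9 to 84.8 FPKM, and macrophage markers from 4.59 to 11.2 and from 5.52 to 6.91 FPKM. None of these lists had a gene at 0 in every pig, and their part in the differences of the F-box and cullin genes was not tested.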

How the data were processed

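RNA-seq of longissimus dorsi from 3 HF and 3 LF pigs was used. The authors trimmed with fastp, mapped to Sscrofa11.1 with HISAT2 and made the deposited FPKM values with cufflinks. Another 6 deposited columns hold the authors' own comparison, by DESeq2 on HTSeq counts, and were not used. Log2(FPKM + 0.1) was compared with limma (version 3.58.1, R 4.3.3; eBayes with trend, two-sided, no covariate) for the 11136 genes averaging 0.5 FPKM or more, with Benjamini-Hochberg adjustment over them and a call at an adjusted p under 0.05. Coordinates are those of the deposited table on Sscrofa11.1, counted from 1. Of 25878 genes, 8278 had no symbol; 1088 were named from a gene name table by ID, and 7190 stayed unnamed. The members and the other gene lists were chosen with earlier results of these data known. Named in full are the cullins and core genes, the 8 members of each direction with the smallest p, the 8 most abundant, and at most 4 genes of each other list. FBXW7, FBXW11, FBXO4, FBXO7, FBXO9, FBXO42, FBXL15, FBXW8, FBXO33, FBXO5, FBXO44, BNIP3L, CAND2 and the rows without a symbol were added after their values were seen. Also given outside that naming rule are FBXO32, FBXO30 and further members under the minimum, such as FBXO43, FBXO36, FBXO47 and FBXO2. The values of 1 tested member are not reported here. On simulated data of this size the fit called 17 of 67 genes changed by 1 on the log2 scale, 51 of 67 by 2 and 57 of 66 by 3, with 6 false calls. Alternatives were other pseudocounts (1 and 0.01), no filter or at least 5 FPKM, median-of-ratios scaling, a robust fit, no trend, a replicate block, an adjusted p under 0.10 and each pig left out.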

Additional observations from a re-analysis of the deposited data

How the results depend on the processing

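The member count called was 0 under every alternative run. Of 755 alternative values of 55 named genes, 741 kept direction and side of the threshold. Genes called higher over the whole table, 4, came to 2 with a pseudocount of 1, 0 without a filter, 2 at 5 FPKM or more, 12 with median-of-ratios scaling, 9 with a robust fit, 1 without trend, 315 at an adjusted p under 0.10, and 0 to 102 with a pig left out (102 without LF02). Genes called lower, 4, came to 1 without a filter, 8 with median-of-ratios scaling, 1 without trend, 389 at an adjusted p under 0.10, and 1 to 124 with a pig left out (124 without LF02). With the replicate number as a block, 8 were called lower and 6 higher. Deviations from the group mean hardly correlated between same-numbered pigs (r = -0.0435, 0.0882 and 0.0160). For pigs of unlike number r ran from -0.0906 to 0.0797. The labels do not say whether the numbers mark pairs, and these correlations cannot exclude it. Members higher at an unadjusted p under 0.05, 2, were 4 without a filter, 1 at 5 FPKM or more and 2 to 6 with a pig left out, and members lower, 4, were 3 to 8. Members separated upward, 6, were 3 at 5 FPKM or more and 6 to 12 with a pig left out, and those separated downward, 8, were 8 to 17; fewer pigs separate more easily. The member median, -0.01, was -0.24 at 5 FPKM or more and -0.144 to 0.0217 with a pig left out. Signs turned for FBXO40 with median-of-ratios scaling (-0.030) and, over the pigs left out, for FBXO40 (-0.18 to 0.23), CUL4B (-0.334 to 0.00252), KDM2A (-0.0491 to 0.246), KDM2B (-0.198 to 0.0219), BTRC (-0.17 to 0.17), FBXO32 (-0.93 to 0.28) and FBXO30 (-0.382 to 0.0717). The cause was not tested. With 3 pigs a group and the read count behind each value unknown, the design misses most changes of 1 on the log2 scale, as in the simulated data.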
